A study of Mus musculus with 5 samples.

Results

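The genes Prg2, Epx, Il5ra, Siglecf, Mcpt8, Prss34, Cpa3, Hdc, Fcer1a and Kit are used to recognise eosinophils, basophils and mast cells. They were taken by gene symbol from a mouse read count table, where all 10 were present among 34970 symbols. The table holds 5 libraries of wild-type mouse material. MCC (myeloid-like cell complex) belongs to work on turning fibroblasts directly into macrophages; PB is labelled plasma blood cells and described in the design text as CD45-positive; BM is bone marrow; iPSC is induced pluripotent stem cells; and MEF, the name used for mouse embryonic fibroblasts, is the starting type that the series title refers to. The labels used here do not describe how MCC was made, the age or sex of the animals, or any pooling. Each group is 1 library, so differences cannot be set against replicate spread and p-values are left out. Levels are CPM, read counts scaled to a common library size, and intervals are 95% intervals for counting error only.

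Eosinophils, basophils and mast cells are granule-filled leukocytes of allergic and anti-parasite responses. Eosinophils and basophils complete their maturation in the marrow and then circulate, whereas mast cell precursors leave the marrow and mature within tissues. All draw on the transcription factors GATA1 and GATA2, and much of their granule protein is made while the cells are still precursors. IL-5 drives eosinophil growth, IL-3 that of basophils, and stem cell factor (the product of Kitl), acting through its receptor KIT, that of mast cells. IgE bound to its high-affinity receptor triggers basophils and mast cells to release histamine and proteases.

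Total counts lay between 30078366 (PB) and 47557598 (MCC), and 3 reads, used as the floor for a gene with no reads, equal between 0.0574 CPM (iPSC) and 0.100 CPM (PB). The leukocyte gene Ptprc, which encodes CD45, was at 64.3 CPM in MCC, 2327 CPM in PB, 524.7 CPM in BM, 0 in iPSC and 0.0694 CPM in MEF. The pluripotency gene Pou5f1 was at 325 CPM in iPSC and at most 0.347 CPM elsewhere, and the fibroblast collagen gene Col1a1 was at 6563 CPM in MCC, 1.74 CPM in PB, 39.4 CPM in BM, 169.8 CPM in iPSC and 8923 CPM in MEF. Haemoglobin transcripts took 9.04% of PB counts. The PB library code stands apart from the other 4, so any difference in handling cannot be told apart from the PB group.

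The 10 genes formed a marrow-centred set that was near 0 in MCC. Summed over the 10, the level was 0.787 CPM in MCC (34 reads in all), 631 CPM in PB, 1294 CPM in BM, 35.6 CPM in iPSC and 10.5 CPM in MEF. In MCC 0 of 10 reached 5 CPM, in PB 3, in BM 9, in iPSC 1 and in MEF 1. Of all symbols in the count table, 32.0% did in MCC, 29.3% in PB, 30.3% in BM, 31.7% in iPSC and 30.5% in MEF. The PB count was thus near the share of all symbols. More than 3 reads were present for 3 genes in MCC, for all 10 in PB and BM, for 6 in iPSC and for 2 in MEF. The share of all symbols over 3 reads was not computed, so these counts are not read further. Members with 0 reads numbered 4 in MCC, 0 in PB, 0 in BM, 3 in iPSC and 8 in MEF. Of the 34970 symbols, 24822 had a read in MCC, 25969 in PB, 26881 in BM, 28197 in iPSC and 24445 in MEF. The highest level was in BM for 7 of the 10 and in PB for the other 3, where 18.4% of the 13998 genes at 5 CPM in any library were highest in BM and 22.6% in PB. In bulk RNA, fewer cells of a type and less RNA per cell cannot be told apart. A gene counts below as higher or lower by a size rule: the CPM had to differ 4-fold or more, and the higher library had to reach 5 CPM. Genes that reached 5 CPM in either library of a pair are called tested. The shares of all genes called by the rule are of the genes tested, whereas counts of members and lists are out of all their genes. Median ratios of members and lists cover their genes with more than 3 reads in either library of the pair. They can thus include genes below 5 CPM, unlike the medians over all genes tested that stand beside them.

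**Figure D1:**
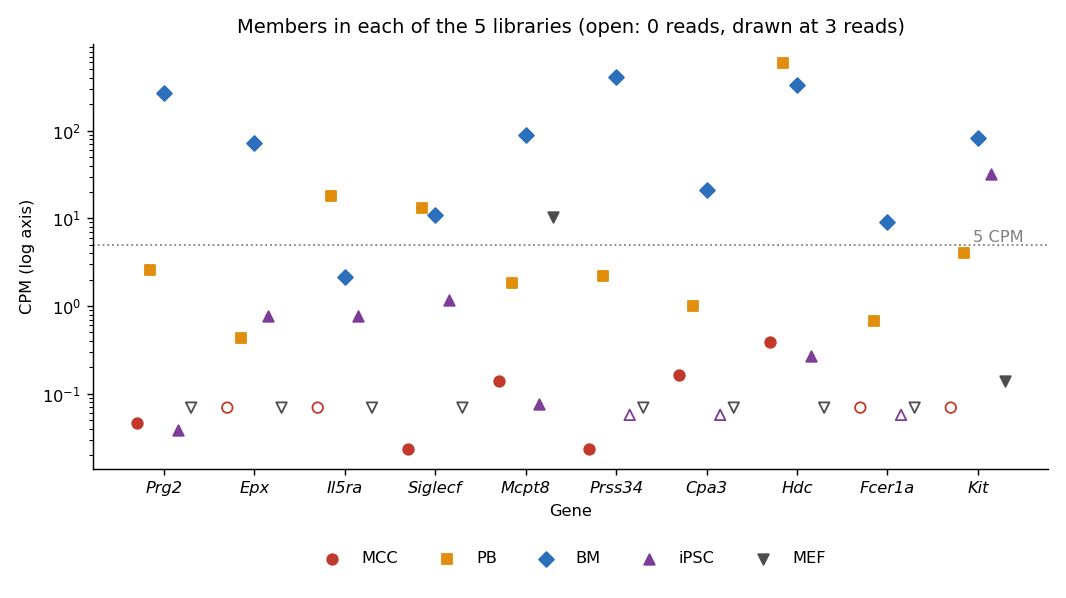
CPM of the 10 genes (log axis) in the 5 libraries, 1 point per library, with eosinophil genes at the left and receptor genes at the right. Open symbols mark 0 reads and stand at the level of 3 reads. BM is highest for 7 genes and PB for Il5ra, Siglecf and Hdc, and every MCC point lies below 0.5 CPM.

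The eosinophil granule genes were marrow genes here. Prg2 encodes major basic protein, the cationic core protein of the eosinophil granule. It lies on mm10 chromosome 2, 84980461 to 84983632, and stood at 0.0463 CPM in MCC, 2.54 CPM in PB, 266 CPM in BM, 0.0383 CPM in iPSC and 0 in MEF. The MCC and iPSC values are 2 reads each, so BM alone held the transcript at a high level, with 98.2% of genes below it there. Epx (chromosome 11, 87864000 to 87875536) encodes eosinophil peroxidase, the haem enzyme of the same granules. It had 0 reads in MCC, 0.435 CPM in PB, 72.9 CPM in BM, 0.765 CPM in iPSC and 0 reads in MEF. Its iPSC value rests on 40 reads and its PB value on 13.

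The eosinophil surface genes were distributed differently. Il5ra (chromosome 6, 106710357 to 106749037) encodes the IL-5 binding chain of the IL-5 receptor. It had 0 reads in MCC, 17.8 CPM in PB, 2.14 CPM in BM, 0.765 CPM in iPSC and 0 reads in MEF, so PB stood above BM. Siglecf (chromosome 7, 43351341 to 43359531) encodes a sialic acid binding receptor used to sort mouse eosinophils, also carried by alveolar macrophages. It was at 0.0231 CPM in MCC, or 1 read, 13.1 CPM in PB, 10.9 CPM in BM, 1.19 CPM in iPSC and 0 in MEF. The PB and BM levels of Siglecf were close, and the fibroblast library held neither surface gene. IL-5 receptor is also known on a class of mouse B cells, and the 4 B cell markers examined summed to 1082 CPM in PB and 553 CPM in BM. Their part in the Il5ra levels was not tested. The alveolar macrophage markers summed to 59.9 CPM in MCC, 20.2 CPM in PB, 15.9 CPM in BM, 51.0 CPM in iPSC and 12.4 CPM in MEF, and their part in the Siglecf levels was not tested. The iPSC sum was carried by Car4 at 49.4 CPM, while Marco, Fabp4 and Pparg were at 0.0191, 0.153 and 0.976 CPM there.

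Of 10 further eosinophil genes, 9 were lower by that rule in MCC than in BM and 6 lower than in PB, and 0 were higher in either comparison. Over all genes tested the rule called 13.5% lower than in BM and 15.4% lower than in PB. Of the 10, 9 reached 5 CPM in MCC or BM and 6 in MCC or PB, so each one tested was called lower. The median log2 ratio of the list was −6.98 for MCC over BM and −4.14 for MCC over PB, beside 0.11 and 0.38 over all genes tested. Ltb4r1, a receptor for leukotriene B4, was at 1.13 CPM in MCC, 20.4 CPM in PB and 187 CPM in BM. Rnase6, a ribonuclease gene, was at 2.87 CPM in MCC, 30.3 CPM in PB and 40.1 CPM in BM. Ccr3, the eotaxin receptor gene, was at 1.41 CPM in MCC, 13.4 CPM in PB and 10.8 CPM in BM, and had 0 reads in iPSC and MEF. Prg3, the granule protein gene beside Prg2, was singled out with its values known, with 0 reads in MCC, 0.469 CPM in PB and 12.5 CPM in BM. The eosinophil ribonuclease genes Ear1 and Ear2 share 57.4% and 41.5% of their transcript stretches of 50 bases with other genes, so their counts are uncertain and no values are given for them. The counts and medians of the list include them: both are among the 9 lower than in BM, and Ear2 is among the 6 lower than in PB.

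The basophil and mast cell proteases were also highest in marrow, and one of them, Mcpt8, had a further level in fibroblasts. Prss34 (chromosome 17, 25298394 to 25300165) encodes mast cell protease 11, a serine protease made mainly by basophils in the mouse. It was at 0.0231 CPM in MCC (1 read), 2.21 CPM in PB and 409 CPM in BM, with 0 reads in iPSC and MEF. Mcpt8 (chromosome 14, 56082166 to 56085273) encodes mast cell protease 8, a basophil marker in the mouse despite its name. It was at 0.139 CPM in MCC, 1.84 CPM in PB, 90.5 CPM in BM, 0.0765 CPM in iPSC and 10.4 CPM in MEF. Cpa3 (chromosome 3, 20215620 to 20242181) encodes carboxypeptidase A3, a granule enzyme of mast cells and basophils. It was at 0.162 CPM in MCC (7 reads), 1.004 CPM in PB and 21.3 CPM in BM, with 0 reads in iPSC and MEF. BM was thus highest for all 3 proteases, and MEF held reads of Mcpt8 alone among them.

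The wider list of connective tissue and mucosal mast cell proteases was almost silent. By library, between 29.3% (PB) and 32.0% (MCC) of all symbols reached 5 CPM. Of the 10 genes of the list, 0 did so in MCC, PB, iPSC or MEF and 1 did in BM. That gene was Ctsg (cathepsin G), which neutrophil precursors also make, at 0.0926 CPM in MCC, 0.536 CPM in PB and 426 CPM in BM. The 10 neutrophil granule markers summed to 5.99 CPM in MCC, 5911 CPM in PB and 65638 CPM in BM, but they differed among themselves in PB. S100a9, S100a8 and Retnlg were at 3583, 1516 and 574 CPM there, while Elane, Prtn3 and Mpo were at 0.803, 4.05 and 2.91 CPM. In BM Elane, Prtn3 and Mpo were at 1103, 981 and 2422 CPM. The part of these markers in the Ctsg level was not tested. The tryptase genes Tpsb2 and Tpsab1, defining genes of mature mast cells singled out with their values known, had at most 1 read in any library. The chymase gene Cma1, chosen likewise, had 0 reads in MCC, 143 reads in PB and 6 in BM.

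Promoter sequence is shown for 6 of the genes, which divide by library, and that of Epx, Hdc and Siglecf is not printed. Prss34, Cpa3 and Fcer1a were highest in BM with 0 reads in iPSC and MEF, Il5ra was highest in PB, and Mcpt8 and Kit were highest in BM with a further level in MEF for Mcpt8 and in iPSC for Kit. Each line gives the 150 bases before the RefSeq start on GRCm38.p6, 5′ to 3′ on the gene's own strand. Capitals mark a GATA word or TATAAA, on either strand. The GATA words searched were AGATAA with its variant TGATAA, and the word AGATAG with its variant TGATAG. The intervals are chr17:25298244-25298393 (plus strand) for Prss34, chr3:20242182-20242331 (minus) for Cpa3, chr1:173227230-173227379 (minus) for Fcer1a, chr6:106749038-106749187 (minus) for Il5ra, chr14:56085198-56085347 (minus) for Mcpt8 and chr5:75574837-75574986 (plus) for Kit. The RefSeq starts of Mcpt8 and Kit lie inside the gene bounds given here from GENCODE, so those windows partly overlap the genes.
Prss34: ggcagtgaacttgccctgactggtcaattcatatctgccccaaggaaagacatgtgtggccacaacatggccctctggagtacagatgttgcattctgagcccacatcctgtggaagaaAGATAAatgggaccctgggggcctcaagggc
Cpa3: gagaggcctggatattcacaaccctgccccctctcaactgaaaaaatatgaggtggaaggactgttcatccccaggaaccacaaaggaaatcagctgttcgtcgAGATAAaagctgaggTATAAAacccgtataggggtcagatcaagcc
Fcer1a: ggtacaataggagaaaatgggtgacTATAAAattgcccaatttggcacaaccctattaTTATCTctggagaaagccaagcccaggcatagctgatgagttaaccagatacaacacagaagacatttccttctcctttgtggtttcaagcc
Il5ra: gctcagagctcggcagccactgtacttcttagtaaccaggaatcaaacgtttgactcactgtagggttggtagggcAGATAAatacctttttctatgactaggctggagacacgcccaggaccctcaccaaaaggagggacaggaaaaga
Mcpt8: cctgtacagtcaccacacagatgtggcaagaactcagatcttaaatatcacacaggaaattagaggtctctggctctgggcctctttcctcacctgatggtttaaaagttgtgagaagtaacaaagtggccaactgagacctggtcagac
Kit: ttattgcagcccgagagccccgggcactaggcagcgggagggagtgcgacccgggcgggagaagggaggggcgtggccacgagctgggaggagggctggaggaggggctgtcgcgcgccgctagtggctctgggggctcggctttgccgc

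Windows of 300 bases, from 250 before to 50 after the start, were held for 9 of the 10 genes, Prg2 being the exception. A GATA word was present in 6 of the 9 (Prss34, Cpa3, Fcer1a, Il5ra, Hdc and Siglecf), beside 30.2% of 27025 promoters in the same table. Mcpt8, Kit and Epx held none, and Epx, like Prss34, was highest in BM with 0 reads in MEF. The GATA word began 31 bases before the start in Prss34, 46 in Cpa3, 74 in Il5ra, 92 in Fcer1a and 221 in Hdc. In Siglecf the words began 2 and 11 bases after the start. The RefSeq start of Hdc lies inside its gene bounds from GENCODE, so its window lies within the gene. The words AGGAAG, the core of sites bound by ETS factors such as PU.1, and TTGCNNAA, a C/EBP word, were present in 3 and 1 of the 9, beside 35.1% and 10.8% of all promoters, both strands searched. TATAAA was present in 3 of the 9 (Epx, Cpa3 and Fcer1a), beside 14.2%. The Kit window was 69.0% G and C, above 89.3% of promoters, and the Cpa3 window 43.3%, above 18.0% of them. These matches are letters in a window and say nothing of binding.

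Histamine synthesis, IgE binding and the stem cell factor receptor were read next. Hdc (chromosome 2, 126593667 to 126619299) encodes histidine decarboxylase, the enzyme that makes histamine. It was at 0.393 CPM in MCC (17 reads), 587 CPM in PB, 329 CPM in BM, 0.268 CPM in iPSC and 0 in MEF, so both native libraries held it and PB more than BM. Immature neutrophils and other myeloid cells are also known to express Hdc, and the part of the neutrophil granule transcripts described above in its levels was not tested. Hdc made up most of the summed level of the 10 genes in PB. Per kilobase of annotated exon, Hdc had 139 times the Cpa3 reads in PB and 3.66 times in BM. Fcer1a (chromosome 1, 173221284 to 173227214) encodes the IgE-binding chain of the high-affinity receptor. It had 0 reads in MCC, 0.670 CPM in PB, 9.16 CPM in BM and 0 reads in iPSC and MEF, and its PB value is 20 reads.

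Kit (chromosome 5, 75574916 to 75656722) encodes the receptor for stem cell factor, which stays on mast cells through life and which blood stem and progenitor cells and germ cells also carry. It had 0 reads in MCC, 4.05 CPM in PB, 83.0 CPM in BM, 32.5 CPM in iPSC and 0.139 CPM in MEF. BM and iPSC were thus high and MCC was empty, at a depth where 3 reads are 0.0694 CPM. The 9 blood stem and progenitor markers summed to 1154 CPM in MCC, 82.8 CPM in PB, 113 CPM in BM, 642 CPM in iPSC and 315 CPM in MEF, and Flt3, a defining marker, had 0 reads in MCC and MEF. The 6 pluripotency markers summed to 2585 CPM in iPSC and to at most 1.76 CPM in the other libraries. The part of these cells in the Kit levels was not tested. The 4 melanocyte markers in the table, from a pigment cell type that also carries KIT, summed to at most 6.85 CPM outside PB. In PB Pmel alone was at 19.05 CPM, and Dct, Mlana and Sox10 had 0 reads.

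MCC was set against each other library in turn. Against BM, 9 of the 10 genes were lower and 0 higher, where the same rule called 13.5% of 12427 genes lower and 15.6% higher. The median log2 ratio of MCC over BM was −9.53 for the 10 genes and 0.11 over all genes tested. Calls and medians set counts under 3 to 3, whereas the folds of genes with 1 or 2 reads rest on those reads and are known only within their wide intervals. Prss34 was 17665-fold (3170.1 to 697771) lower in MCC on 1 read, Prg2 5739-fold (1588 to 47399) lower on 2 reads, and Hdc 837-fold (522 to 1436) lower. Mcpt8 was 651-fold (299 to 1776) lower, Siglecf 473-fold (84.5 to 18727) lower on 1 read, and Cpa3 132-fold (63.6 to 328) lower. Kit was at least 1195-fold lower, Epx at least 1050.5-fold and Fcer1a at least 132-fold. The exception, Il5ra, did not reach 5 CPM in BM and was at least 30.8-fold lower in MCC.

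Against PB, 3 of the 10 were lower in MCC and 0 higher, where the rule called 15.4% of 12545 genes lower and 21.5% higher. They were Hdc, 1492-fold (932 to 2563) lower, Siglecf, 564-fold (101 to 22339) lower on 1 MCC read, and Il5ra, at least 256-fold lower. The other 7 stayed below 5 CPM in PB. All 7 had a lower CPM in MCC than in PB, among them Kit at least 58.3-fold lower, Mcpt8 13.3-fold (5.72 to 37.7) lower and Cpa3 6.20-fold (2.67 to 16.7) lower. Prss34 and Prg2, with 1 and 2 MCC reads, give wide intervals and cannot be ranked among them. The median log2 ratio of MCC over PB was −5.09 for the 10 genes and 0.38 over all genes tested. C1qb, a macrophage gene, was at 2288 CPM in MCC, 4.62 CPM in PB and 62.0 CPM in BM, so the low values of the 10 stood beside abundant macrophage transcript.

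Against iPSC and MEF a single gene passed in each comparison. Kit was at least 468-fold lower in MCC than in iPSC, where the rule called 9.77% of 12442 genes lower and 11.3% higher. Mcpt8 was 74.6-fold (34.005 to 204) lower in MCC than in MEF, where it called 2.71% of 11720 genes lower and 8.05% higher. The median log2 ratio was −3.46 for MCC over iPSC, over the 7 members with enough reads for a ratio, and 0.11 for MCC over MEF, over 4, beside 0.14 and −0.01 over all genes tested. No member was higher in MCC than in MEF by the rule. The nearest was Hdc, with 17 reads in MCC and 0 in MEF, at least 5.67-fold higher and below 0.4 CPM. Cpa3 had 7 reads in MCC and 0 in MEF, at least 2.34-fold higher. Prg2, Epx, Fcer1a, Siglecf, Il5ra and Prss34 had at most 2 reads in MCC and 0 in MEF, which gives no ratio, and Kit had 0 reads in MCC and 6 in MEF.

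Blood and marrow, the libraries that held the 10 genes, differed gene by gene. In PB 7 of the 10 were lower than in BM and 1 was higher, where the rule called 9.68% of 11377 genes lower and 6.32% higher. The 3 proteases, the eosinophil granule genes, Fcer1a and Kit were on the lower side. Prss34 was 185-fold (145 to 239) lower in PB, Epx 168-fold (97.8 to 315), Prg2 104-fold (83.3 to 133), Mcpt8 49.1-fold (37.7 to 65.3), Cpa3 21.2-fold (14.8 to 31.7), Kit 20.5-fold (17.1 to 24.8) and Fcer1a 13.7-fold (8.73 to 22.7). Il5ra was 8.32-fold (6.62 to 10.6) higher in PB. Hdc was 1.78-fold (1.74 to 1.82) and Siglecf 1.19-fold (1.04 to 1.37) higher in PB, short of the rule. Markers of many other cell types also differed between PB and BM. Lower in PB were 9 of 10 neutrophil granule, 4 of 5 erythroid, 4 of 7 macrophage, 3 of 7 fibroblast and 1 of 9 stem and progenitor markers. Higher in PB were 5 of 5 T cell markers and 1 each of the erythroid, fibroblast, melanocyte and leukocyte markers. The part of these cells in the differences was not tested. The median log2 ratio of PB over BM was −4.38 for the 10 and −0.18 over all genes tested.

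**Figure D2:**
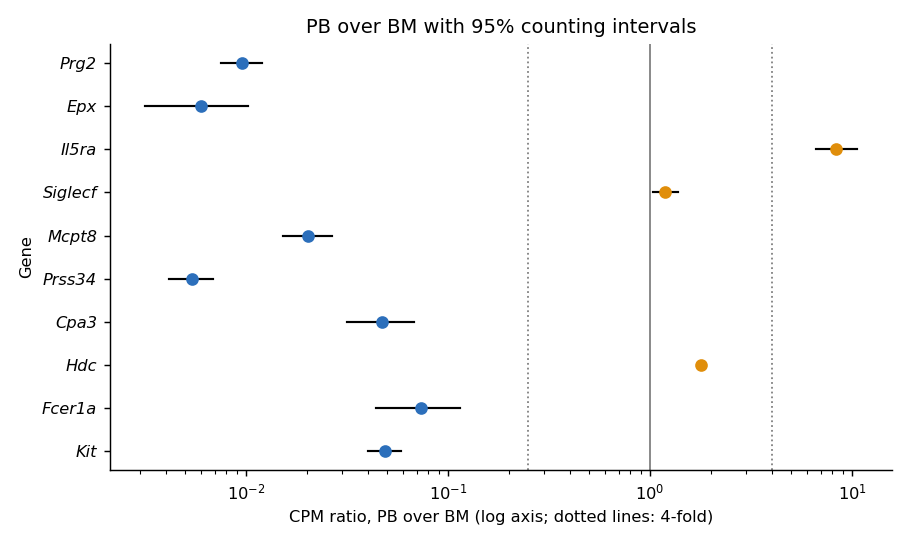
CPM ratio of PB over BM (log axis) for the 10 genes, with 95% counting intervals as bars and dotted lines at 4-fold. The granule genes, Fcer1a and Kit lie between 13.7-fold and 185-fold lower in PB, while Il5ra lies 8.32-fold higher and Hdc and Siglecf lie near 1.

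Order within each library was read per kilobase of annotated exon. In BM the order was Prss34 at 335 CPM per kilobase, Prg2 at 317, Mcpt8 at 90.6, Hdc at 51.5, Epx at 26.6, Cpa3 at 14.1, Kit at 9.31, Fcer1a at 9.18, Siglecf at 3.92 and Il5ra at 0.597. Kit and Fcer1a, neighbours in that order, had overlapping counting intervals. In PB Hdc led at 91.9 CPM per kilobase, followed by Il5ra at 4.97, Siglecf at 4.68, Prg2 at 3.04, Mcpt8 at 1.85 and Prss34 at 1.81, with the others at or below 0.671. The PB intervals of Il5ra and Siglecf overlapped, as did those of Prg2 and Mcpt8 and those of Mcpt8 and Prss34. Some pairs had similar ratios in both libraries. Kit had 0.687 times the Cpa3 reads per kilobase in PB and 0.662 times in BM, and Prg2 had 19.1 times the Epx reads in PB, on 13 Epx reads, and 11.9 times in BM. Il5ra had 31.3 times the Epx reads per kilobase in PB and 0.0224 times in BM.

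Mcpt8 in fibroblasts stood out from the other members. MEF held 448 Mcpt8 reads, while 8 of the 10 genes had 0 reads there, among them Prss34, which had 16654 reads in BM. Of all 34970 symbols, 24445 had a read in MEF. The surrounding locus was then read, a choice made after these values were seen. It holds 15 annotated protein-coding genes from Cma1 to Gzmb on mm10 chromosome 14, 55941451 to 56262260, of which 13 were in the table. More than 3 reads were present for 3 of the 13 in MCC, 5 in PB, 5 in BM, 1 in iPSC and 9 in MEF. These counts have no share of all symbols beside them and are not read further. In MEF the granzyme genes Gzme, Gzmd and Gzmc were at 8.35, 2.17 and 1.202 CPM, the chymase gene Cma2 at 1.71 CPM and Mcpt9 at 0.925 CPM. In BM the same 5 genes had at most 3 reads each. Ctsg, the coding gene next to Mcpt8, showed the opposite, with 0 reads in MEF and 426 CPM in BM. In MCC Gzme had 10 reads and Mcpt8 6. No stretch of 50 bases of the annotated Mcpt8 transcripts occurs in another gene's transcripts, whereas 39.8% of those of Cma2, 21.9% of Gzmd, 20.6% of Gzme and 18.8% of Mcpt9 do, so the counts of those 4 are uncertain.

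**Figure D3:**
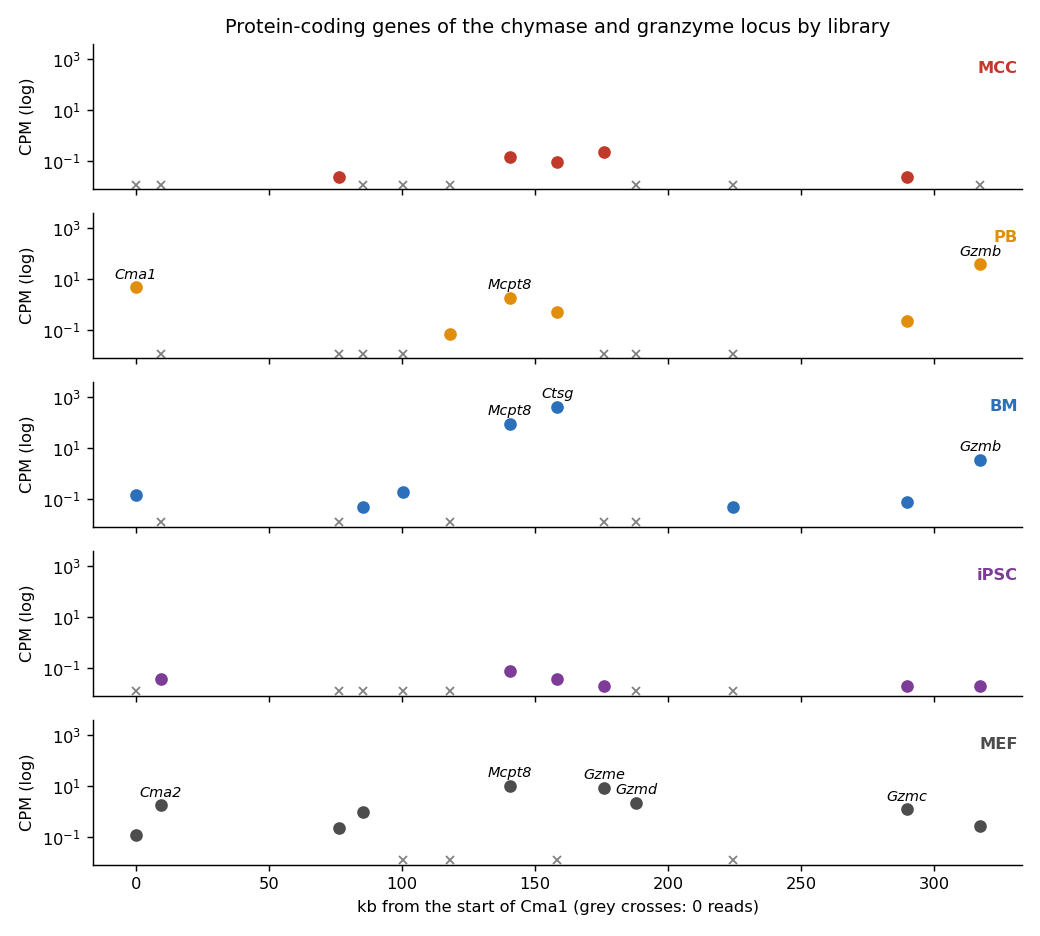
CPM (log axis) of the 13 protein-coding genes of the chymase and granzyme locus by distance in kb from the start of Cma1, 1 panel per library, with names at 1 CPM or more and grey crosses at 0 reads. MEF holds Mcpt8 with Gzme, Gzmd, Gzmc and Cma2, BM holds Mcpt8 with Ctsg and Gzmb, and MCC and iPSC hold no gene at 1 CPM.

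The partners of the 3 receptor genes showed another distribution. The IgE receptor consists of the Fcer1a chain with a beta chain (Ms4a2) and a gamma chain (Fcer1g), and the gamma chain also serves IgG receptors of macrophages. Fcer1g was at 447 CPM in MCC, 216 CPM in PB, 263 CPM in BM, 0.0765 CPM in iPSC and 0.347 CPM in MEF. Ms4a2, chosen as the remaining subunit, had 0 reads in MCC, 2.71 CPM in PB, 13.8 CPM in BM, 0.0191 CPM in iPSC and 0.0925 CPM in MEF. MCC therefore held transcript of the shared gamma chain without reads of the chains particular to the IgE receptor. Csf2rb, the beta chain with which the IL-5, IL-3 and GM-CSF receptors signal, was at 82.7 CPM in MCC, 272 CPM in PB, 325 CPM in BM, 0 in iPSC and 0.0231 CPM in MEF. It shares 12.3% of its transcript stretches of 50 bases, part of them with its copy Csf2rb2, so the split between those genes is uncertain. Kitl, the gene of stem cell factor, was at 110 CPM in MCC, 0 in PB, 4.64 CPM in BM, 5.82 CPM in iPSC and 14.2 CPM in MEF. Kitl was 7.79-fold (7.16 to 8.49) higher in MCC than in MEF, and Kit itself had 0 reads in MCC and 6 in MEF.

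**Figure D4:**
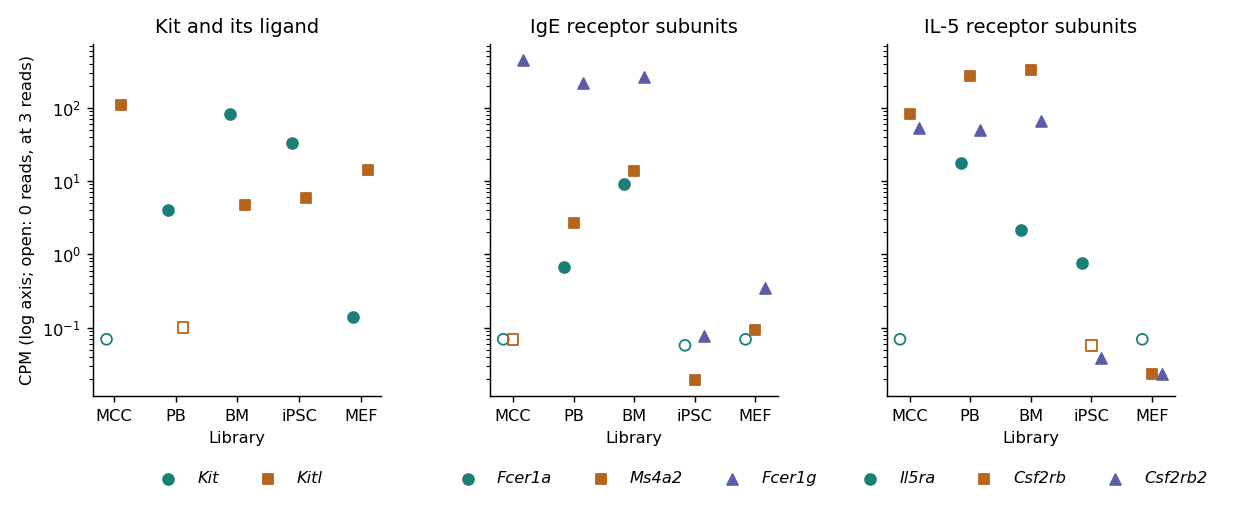
CPM (log axis) of Kit and its ligand gene Kitl, of the IgE receptor subunit genes, and of the IL-5 receptor subunit genes in the 5 libraries. Open symbols mark 0 reads, drawn at 3 reads. MCC has 0 reads of Kit, Fcer1a and Il5ra beside 110 CPM of Kitl, 447 CPM of Fcer1g and 82.7 CPM of Csf2rb.

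Other receptor and mediator genes of these cells include enzymes of prostaglandin and leukotriene synthesis. Of 18 receptor and mediator genes of mast cells and basophils in the table, 5 passed the rule as higher in MCC than in MEF and 0 as lower, with a median log2 ratio of 1.25, beside −0.01 over all genes tested, of which 8.05% were higher and 2.71% lower. Beside Fcer1g they were Hpgds, the haematopoietic prostaglandin D synthase, with 101 CPM in MCC but 0.0462 CPM in MEF, Alox5ap, the activating protein of 5-lipoxygenase, at 96.3 and 0.694 CPM, Srgn, the granule proteoglycan serglycin, at 17.2 and 0.0694 CPM, and Ltc4s, leukotriene C4 synthase, at 10.9 and 0.139 CPM. Exons of other annotated genes cover 26.4% of the Ltc4s and 13.3% of the Alox5ap exon bases, so those counts are uncertain. By the rule, MCC stood above MEF for 7 of 7 macrophage and 5 of 5 leukocyte markers. How far macrophages or other leukocytes contribute to the MCC levels of the 5 genes was not tested. The same limit holds for the signalling, transcription factor and growth factor lists set against MEF below. Alox5, the gene of 5-lipoxygenase itself, was singled out with its values known. It was at 0.0463 CPM in MCC, or 2 reads, 75.0 CPM in PB, 257 CPM in BM, 7.88 CPM in iPSC and 0.0694 CPM in MEF. By the rule it was lower in MCC than in PB, BM and iPSC. Against BM 2 of the 18 were higher in MCC (Hpgds, 27.4-fold, 23.3 to 32.4, and Ltc4s) and 6 lower, and against PB 3 were higher and 3 lower. Those counts stand beside 15.6% of all genes tested higher and 13.5% lower than in BM. Against PB the shares were 21.5% higher and 15.4% lower. Of the 18, only 12 reached 5 CPM in MCC or BM, and 10 in MCC or PB. The count lower than in BM was above its share on either base, and the other counts are not read further. The median log2 ratio was −1.84 for MCC over BM and −1.39 for MCC over PB. Srgn was 18.8-fold (17.4 to 20.2) lower in MCC than in BM and 62.0-fold (57.6 to 66.7) lower than in PB. Il1rl1, which encodes the IL-33 receptor of mast cells and was singled out with its values known, was at 99.8 CPM in MCC, 6.43 CPM in PB, 31.1 CPM in BM, 0.249 CPM in iPSC and 320.2 CPM in MEF.

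Signalling genes below the IgE receptor and KIT were largely present in MCC. By library, between 29.3% (PB) and 32.0% (MCC) of all symbols reached 5 CPM. Of the 16 signalling genes, 15 did so in MCC, 16 in PB, 16 in BM, 11 in iPSC and 7 in MEF. Against MEF 9 were higher in MCC and 0 lower, the median log2 ratio being 3.79 beside −0.01 over all genes tested, of which 8.05% were higher. Among the 9 was Ptpn6, a phosphatase of blood cells, with 192 CPM in MCC but 0.486 CPM in MEF. Against PB 7 of the 16 were lower in MCC and 0 higher, beside 15.4% and 21.5% of all genes. Against BM 5 were lower and 0 higher, beside 13.5% and 15.6%, among them Syk, the kinase that the IgE receptor recruits, with 70.2 CPM in MCC but 602 CPM in BM. The adaptor gene Shc1 was at 164 CPM in MCC, 194 CPM in BM and 257 CPM in MEF.

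Transcription factors of these lineages were in part lower than in marrow in both MCC and PB. Of 17, 6 were lower in MCC than in BM and 0 higher, with a median log2 ratio of −1.46 beside 0.11 over all genes tested, of which 13.5% were lower and 15.6% higher. In PB 6 of the 17 were lower than in BM and 0 higher, beside 9.68% and 6.32% of all genes. Against PB 2 were lower in MCC and 1 higher, beside 15.4% and 21.5%, and against MEF 4 were higher in MCC and 0 lower, beside 8.05% and 2.71%. Spi1, which encodes PU.1, was at 261 CPM in MCC, 299 CPM in PB and 401 CPM in BM, and Ikzf1, which encodes the lymphoid and myeloid factor IKAROS, at 24.9, 459 and 464 CPM. Xbp1, a factor of secretory cells that eosinophils require in the mouse, was at 185 CPM in MCC, 161 CPM in BM and 164 CPM in MEF. The factors named in the background were singled out with their values known. Gata1 was at 0.0231 CPM in MCC, or 1 read, 3.01 CPM in PB, 110 CPM in BM, 1.30 CPM in iPSC and 0 in MEF, and erythroid cells also make it. The 5 erythroid markers summed to 7.36 CPM in MCC, 3530 CPM in PB and 3376 CPM in BM, and their part in the Gata1 level was not tested. Gata2 was at 10.1 CPM in MCC, 6.19 CPM in PB, 32.2 CPM in BM, 17.1 CPM in iPSC and 10.1 CPM in MEF. MCC and MEF had the same Gata2 level within counting error, the higher being MEF by 1.001-fold (0.875 to 1.15).

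Growth factor and receptor genes of these lineages were higher in MCC than in MEF for 6 of 14 and lower for 0, with a median log2 ratio of 2.45 beside −0.01 over all genes tested, of which 8.05% were higher and 2.71% lower. Beside Kitl and Csf2rb they were Csf2rb2, Csf2ra, Il33 and Ccl11. Il33 encodes an alarm cytokine that acts on mast cells and basophils, and Ccl11 encodes eotaxin, the eosinophil attractant. Both were singled out with their values known, Il33 with 10.7 CPM in MCC but 0.694 CPM in MEF, and Ccl11 with 8.36 CPM in MCC but 1.87 CPM in MEF. Csf2ra, the GM-CSF binding chain, was at 38.4 CPM in MCC, 241 CPM in PB, 269 CPM in BM and 7.05 CPM in MEF. Between PB and BM 0 of the 14 passed in either direction, beside 6.32% of all genes higher and 9.68% lower in PB.

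In pluripotent cells Kit was the member at a substantial level. Of the 10 genes, Kit was higher in iPSC than in MEF, 234-fold (107 to 639), and Mcpt8 lower, 135-fold (52.5 to 499), where the rule called 8.83% of 11931 genes higher and 6.37% lower. Siglecf, Epx and Il5ra were at trace level in iPSC on 62, 40 and 40 reads, and each had 0 reads in MEF. Prg2 had 2 reads in iPSC and Prss34, Cpa3 and Fcer1a had 0.

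The genes nearest to 4 members over the 5 libraries were found by Euclidean distance of log2(CPM + 0.5). For Prg2 they were Hemgn (distance 0.64), Cebpe (0.85) and Kel (0.86), and for Cpa3 Slfn14 (0.51), Trim58 (0.56) and Itgad (0.62). For Kit they were Cecr2 (2.30), Prom1 (2.36) and Lin28a (2.39), and for Mcpt8 Lmo1 (2.84), Kcnk12 (3.08) and Ank1 (3.09). Prg2 and Cpa3 thus had close matches and Kit and Mcpt8 did not. With 5 libraries such likeness describes the libraries only.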

How the data were processed

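Polyadenylated RNA from 5 wild-type mouse samples was sequenced, 1 library per group. The authors deposited raw read counts per gene symbol. Per the submitters' processing notes, the tools were STAR with featureCounts and the build mm10. No version, annotation, strand setting or filter is stated (not given in the sources used here). Columns were matched to samples by library code, and 0 were left unused.

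CPM were computed from the deposited counts on library sizes scaled by TMM factors from the 5 libraries together (edgeR 4.0.16, R 4.3.3). Other steps used Python 3.11.15, scipy 1.17.1, numpy 2.4.6, pandas 2.3.3 and matplotlib 3.10.9. Ratios used counts under 3 set to 3 for calls and bounds, and exact conditional binomial (Clopper-Pearson) 95% intervals. Reads carry no stated molecular identifiers, so intervals cover counting error only. The 6 comparisons and the rule of size were run on all genes and checked on simulated data. Positions, exon lengths and shared stretches of 50 bases came from GENCODE M21 (mm10), promoters from RefSeq. No exon base of the 10 genes overlaps another annotated gene.

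The members and lists were chosen with earlier results of these data known. The lists held 158 genes, of which 153 were in the table. Genes named beyond the members were the 2 highest of each list in BM and in MCC, those of the mast cell and eosinophil lists higher in MCC than in MEF, and the 3 nearest genes; not all are printed. Others are said to be chosen after their values were seen. Alternatives were DESeq2 1.42.0 size factors, total counts, other CPM minimums, the counting bound, another fold, a library size without abundant genes and TMM without PB.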

Additional observations from a re-analysis of the deposited data

How the results depend on the processing

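Of 92 counts of members recomputed under the alternatives, 84 stayed within 1.5 times the reported count, and the 8 that did not came from changing the CPM minimum. Without a minimum, 10 members were lower in MCC than in PB, 4 lower in MCC than in iPSC, 1 (Hdc) higher in MCC than in MEF and 4 higher in iPSC than in MEF. With a minimum of 20 CPM, 1 was lower in MCC than in PB, 0 lower in MCC than in MEF, 0 higher in PB than in BM and 0 lower in iPSC than in MEF. Each follows from which members reach the minimum. DESeq2 size factors, total counts, a library size without abundant genes and, added after seeing the data, TMM factors without PB turned the direction of 0 of 24 called ratios over 85 recomputed values, with a largest shift of 0.39 log2 units. No paired analysis was possible because each group is 1 library, and for the same reason no replicate could be left out. In MCC 7 of the 10 members had at most 2 reads, 4 of them 0, so depth limits how low their levels can be set.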
